A study of Xenopus laevis with 9 samples.

Results

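The transcripts described here encode proteins of mitochondrial respiration, of the mitochondrial ribosome and of mitochondrial protein import. They were taken by gene symbol from the probe annotation of the array, as the subunits of complexes I to IV and of the ATP synthase, cytochrome c, the enzymes cs, idh3, mdh2 and sqor, the proteins of the mitochondrial ribosome and those of the tomm and timm families. The rule found 142 probesets for 111 genes among the 15476 probesets of the array that are not controls, of which 9296 carried 1 gene symbol. They were measured in 3 groups of wildtype Xenopus laevis tissue with 3 GeneChips each. L was the whole lens of stage 50 tadpoles (L1, L2 and L3). R was the cornea 3 days after removal of the lens (R1, R2 and R3). The paper describes it as undergoing cornea to lens transdifferentiation (CLT). S was the cornea 3 days after sham surgery (S1, S3 and S4), which lifted and replaced the outer cornea and left the inner cornea and lens in place. Each array read 1 pool of 5 lenses or of 7 to 8 corneas by the sample labels, and of 8 to 10 by the methods, the corneas carried some epidermis and the L lenses came from the animals that later gave the R corneas.

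In most animal cells ATP is made mainly in mitochondria, where complexes I to IV pass electrons from NADH and succinate to oxygen. Complexes I, III and IV pump protons, complex II does not, and the ATP synthase uses the proton gradient. A few subunits of these complexes are encoded by mitochondrial DNA and made on the mitochondrial ribosome, whereas all of the proteins described here are encoded in the nucleus and most enter the organelle through the TOM and TIM translocases. In the vertebrate lens the epithelium keeps its mitochondria, while the fibre cells degrade theirs as they mature and come to depend on glycolysis. In tissue pools such as these, fewer cells of a type and less RNA per cell cannot be told apart.

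Library facts that touch the results were as follows. The values are linear RMA intensities, the array medians lay between 2.99 and 3.29, and the 75th percentiles were 8.99 to 9.86 in L, 17.8 to 20.1 in R and 17.5 to 20.4 in S. A direction of change between lens and cornea therefore depended on how the arrays were set to a common scale, and 5 scalings were used: the deposited values, the 75th percentile, quantile normalisation, cyclic loess and the bacterial hybridisation controls. The 5th percentile of every array was 1.06 or lower, and a difference from a group mean under that value has no exact size. Photoreceptor markers summed to 183 to 433 in L, 136 to 803 in R and 107 to 146 in S over 22 probesets, with the highest sum in R2, and 10 of them were higher in L than in S and 0 lower; 11 had an S mean under the 5th percentile limit. Skeletal muscle markers summed to 108 to 136 in L, 279 to 334 in R and 209 to 255 in S over 28 probesets, of which 13 were higher and 3 lower in L than in S, with 12 S means under that limit. Lens markers were higher in L than in S for 12 of 12 probesets. They summed to 85.1, 17.3 and 38.2 in R1, R2 and R3 and to 14.1 to 16.0 in S, with 4 S means under the limit. For the R2 pool the paper proposes that CLT lagged or took place in fewer corneas. Markers of epithelium were lower in L than in S for 24 of 24 probesets, of stroma for 14 of 16 and of leukocytes for 8 of 9. Epithelium sums were 2560 to 2728 in R and 2845 to 3408 in S, with no overlap, while those of stroma and leukocytes overlapped. Pigment cell markers summed to 42.0 to 103 in L, 111 to 164 in R and 222 to 247 in S over 6 probesets. Of the epithelium and pigment cell probesets, 0 were called between R and S. Of the skeletal muscle probesets 2 of 28 were called higher in R than in S, and of the photoreceptor probesets 1 of 22, beside 0.485% of all probesets. The skeletal muscle sums of R all lay above those of S. Red blood cell markers summed to 83.3 to 758 in L, 922 to 1769 in R, and 2334, 1322 and 1902 in S1, S3 and S4. One sham array, S4, resembled an average of the remaining pair: its squared distance from their mean was 0.239 of the squared distance between them, where the same ratio was 0.539 to 1.42 for each of the other 8 arrays. The part of these markers and of S4 in the results was not tested, and counts without single arrays are given with the comparison of R and S.

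Lens was set against sham operated cornea first, as the tissue that CLT rebuilds against the tissue it starts from. In L, 25 were higher than in S (17.6%) and 55 were lower (38.7%), at an adjusted p under 0.05 from 1 limma fit of all 9 arrays, while 22.9% of all probesets were higher and 30.6% were lower. Their median log2 difference was -0.30, and that of all probesets was 0.02. This balance turned with the scaling: 75 higher and 17 lower at the 75th percentile, 48 and 28 after quantile normalisation, 52 and 26 after cyclic loess, and 8 and 65 on the hybridisation controls, with medians of 0.68, 0.27, 0.33 and -0.67 where the medians of all probesets were 0.99, 0.14, -0.00 and -0.35. The shares of all probesets called higher and lower were 58.9% and 15.3%, 26.6% and 23.0%, 22.2% and 24.1%, and 11.7% and 37.2% under these scalings. Under all 5 scalings 8 were higher and 17 lower, or 5.63% and 12.0%, beside 11.7% and 15% (2316) of all probesets. Values of L and S did not overlap in 33 higher and 69 lower members (23.2% and 48.6%), and in 31.5% and 35.9% of all probesets. Calls were also counted by level: of the 115 with a mean intensity of 4 or more, 11 were higher and 52 lower in L than in S, and of the 27 with a lower mean 14 were higher and 3 lower. Among all probesets with a mean of 4 or more, 18.1% were higher and 51.6% lower, and among those with a lower mean 27.4% were higher and 10.9% lower. Of the 80 members called, 21 had the opposite sign under at least 1 other scaling. The plot of the shares called under each scaling gives both sets side by side.

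**Figure D1:**
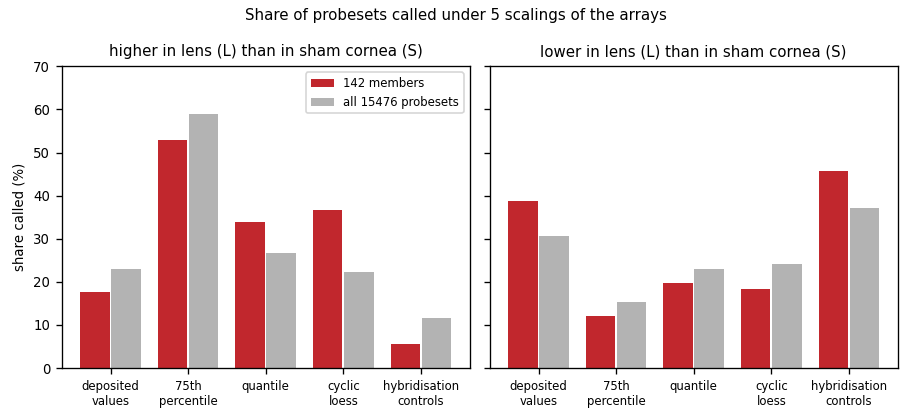
Share of probesets called higher (left) or lower (right) in lens (L) than in sham operated cornea (S), in percent, for the 142 members (red) and all 15476 probesets (grey) under 5 scalings of the arrays. On the deposited values 17.6% of the members and 22.9% of all probesets are higher, both higher shares are largest at the 75th percentile, and after cyclic loess, where 22.2% of all probesets are higher, the members have 52 higher calls in place of 25.

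Calls in L minus S were counted by role. Of all probesets 22.9% were higher and 30.6% lower, and of those with a mean of 4 or more 18.1% and 51.6%. Roles were set by the start of the symbol and not checked gene by gene. They thus place ndufa4 with complex I and timmdc1 with inner membrane import. In complex IV, cytochrome c oxidase, 10 of 14 probesets were lower in L than in S and 0 higher, 5 of them under all 5 scalings, and the median was -1.13 and stayed below 0 under every other scaling, at -0.15, -0.64, -0.57 and -1.50. In complex III 5 of 5 probesets were lower with a median of -0.99, which was -0.01 at the 75th percentile. In complex II 3 of 4 were lower with a median of -0.92, which turned to 0.06 at the 75th percentile. Of the matrix enzymes 5 of 9 were lower and 0 higher, with a median of -0.93 that turned to 0.04 at the 75th percentile. In contrast, 6 of 14 probesets of inner membrane import were higher and 1 lower. Their median of 0.44 stayed above 0 under the other scalings, at 1.42, 0.75, 0.71 and 0.07. Apart from timm10b.S, the higher ones had means under 4 over all arrays. At that level 27.4% of all probesets were higher and 10.9% lower. The lower one, timm23.L, had a mean of 13.4. Complex I was mixed: 4 of its 28 subunit probesets were higher and 6 lower, and its median of -0.05 lay above 0 under 3 of the other scalings, at 0.92, 0.59 and 0.80. The ATP synthase had 4 higher and 8 lower of 18, the large subunit of the mitochondrial ribosome 6 higher and 4 lower of 25, and its small subunit 4 higher and 9 lower of 16, and the medians of all 3, at -0.24, -0.20 and -0.72, turned above 0 under at least the 75th percentile scaling. Outer membrane import had 1 higher and 2 lower of 5, with a median of -0.26 that turned to 0.71 at the 75th percentile. Differences between role groups were not tested.

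**Figure D2:**
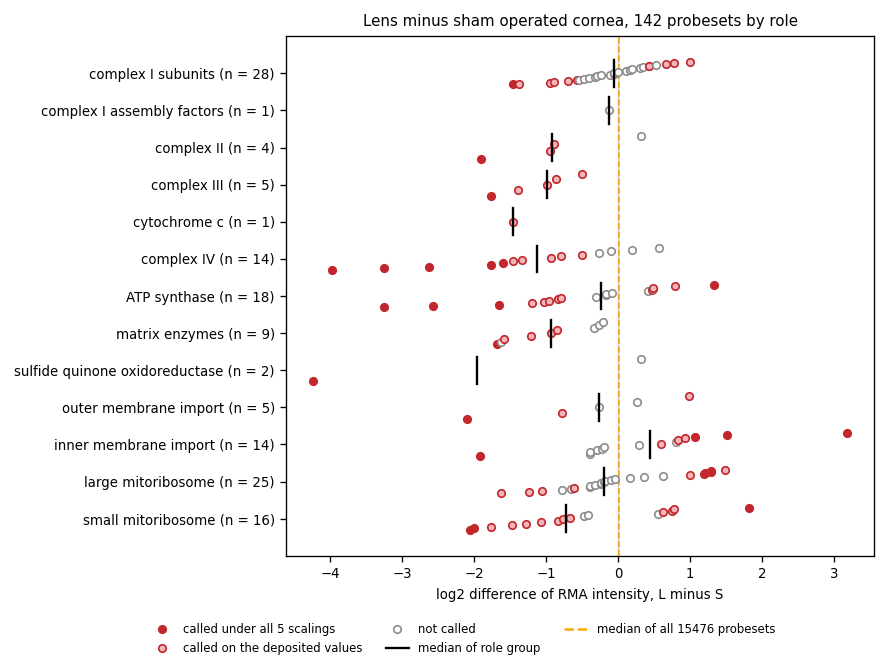
Log2 difference of RMA intensity between lens (L) and sham operated cornea (S) for each of the 142 probesets, by role, with filled points for those called under all 5 scalings, light points for those called on the deposited values but not under all 5 and open points for those not called. Complex IV reaches from -3.98 to 0.57 with a median (black bar) of -1.13 that stays below 0 under every scaling, and inner membrane import from -1.92 to 3.18 with a median of 0.44 that stays above 0.

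Complex IV reduces oxygen to water, and its members on the array are nuclear encoded subunits around the catalytic core. Cox4i2, which in mammals is the lung and hypoxia form of subunit IV, had 4.05, 2.05 and 2.26 for its .S copy in L, 39.9, 44.0 and 30.8 in R and 41.3, 42.3 and 41.9 in S. Every L value lay far under every cornea value, and R and S overlapped. Its L minus S difference was -3.98 ± 0.26 (log2, SE, adjusted p = 1.93e-06). Cox6a1, the widely expressed form of subunit VIa, had 13.7, 14.8 and 16.1 for its .S copy in L, 72.8, 77.4 and 71.8 in R, and 183.3, 116.7 and 130.0 in S. The 3 groups did not overlap, with R between L and S, and L was lower than S by 9.47-fold (adjusted p = 9.76e-07). The .L copy had 29.8, 37.7 and 28.0 in L, 71.1, 81.0 and 85.6 in R and 124.9, 90.0 and 110.0 in S, in the same order with no overlap, and was 3.40-fold lower in L than in S (adjusted p = 4.86e-05). Cox5b.2.L, a copy of subunit Vb, differed by -2.62 ± 0.60 with values of 1.12, 1.29 and 1.13 in L and a wide 3.54 to 16.4 in S (adjusted p = 0.00494), and cox7a2l.L, which in mammals holds respiratory supercomplexes together, by -1.60 ± 0.21 (adjusted p = 0.000198).

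**Figure D3:**
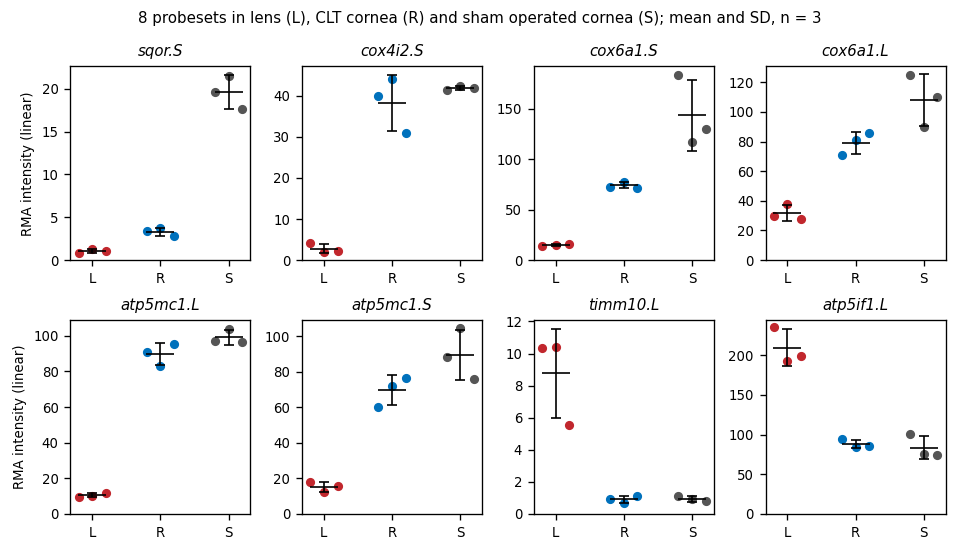
RMA intensity (linear) of 8 probesets in lens (L), CLT cornea (R) and sham operated cornea (S), with 1 point per array and bars for the mean and SD (n = 3). In sqor.S the L, R and S means are 1.05, 3.33 and 19.6, in atp5mc1.L 10.5, 89.7 and 99.1, and in timm10.L 8.77, 0.922 and 0.941.

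The ATP synthase had subunits called in each direction. Atp5mc1, 1 of the genes for the c subunit that forms the rotating ring in the membrane, had 9.40, 10.2 and 11.8 for its .L copy in L, 90.7, 83.0 and 95.3 in R, and 96.9, 104.0 and 96.3 in S. Its .S copy had 17.8, 12.1 and 15.7 in L, 60.2, 72.1 and 76.6 in R, and 88.0, 104.3 and 75.9 in S. Both copies were thus low in all 3 lens pools, at -3.25 ± 0.15 and -2.57 ± 0.21 against S (adjusted p = 2.65e-07 and 6.78e-06 from limma). Atp5pb.S, a subunit of the peripheral stalk, was also lower in L, at -1.65 ± 0.17 (adjusted p = 4.23e-05). Atp5if1.L encodes the inhibitor that stops the enzyme from running backwards and hydrolysing ATP. It had 235.6, 192.3 and 199.4 in L, 94.3, 84.9 and 85.2 in R, and 100.1, 75.5 and 74.1 in S. Each lens value was above every cornea value, R and S overlapped, and L was 2.53-fold higher than S (adjusted p = 0.000181). These 4 calls held under all 5 scalings. The calls of the subunits that were higher in L, among them atp5pd.L and atp5pd.S at 0.47 and 0.78, did not.

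In complexes I to III fewer calls were stable to the scaling. Sdha.L, the flavoprotein of succinate dehydrogenase, which also serves the citric acid cycle, had 29.0, 29.3 and 22.6 in L, 92.3, 96.5 and 82.9 in R and 111.2, 84.5 and 105.9 in S. Lens values were low in every pool and those of the corneas overlapped, and L minus S was -1.90 ± 0.18 (adjusted p = 2.16e-05). Uqcrc2.S, a core protein of complex III, had 46.6, 40.0 and 33.6 in L, 84.4, 93.1 and 101.7 in R and 151.2, 141.4 and 116.1 in S, with no overlap among the groups, and differed by -1.77 ± 0.19 (adjusted p = 4.06e-05). Of complex I, ndufb5.L, a membrane arm subunit, was lower in L under all 5 scalings, at -1.46 ± 0.16 (adjusted p = 5.26e-05). Ndufb8.L, another membrane arm subunit, had 55.9, 63.2 and 63.2 in L, 24.6, 25.6 and 12.6 in R and 31.0, 30.9 and 29.3 in S, and was higher in L by 0.996 ± 0.261 (log2, SE) against S (adjusted p = 0.0101), a call that was lost on the hybridisation controls. Cycs.S, cytochrome c, which carries electrons to complex IV, had 10.1, 9.61 and 8.36 in L, 20.8, 28.2 and 8.99 in R and 26.2, 26.5 and 24.6 in S. Its L minus S difference of -1.46 ± 0.36 (adjusted p = 0.00696) kept its sign but lost its call under 3 of the other scalings.

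Among the matrix enzymes, cs.L, citrate synthase, which starts the citric acid cycle and is often used as a marker of mitochondria, was read by 3 probesets. Their L minus S differences were -1.68, -1.58 and -1.63, with adjusted p = 0.000598, 0.000438 and 0.0965. The first of these had 33.2, 46.6 and 22.0 in L, 95.4, 75.6 and 81.0 in R and 93.5, 123.1 and 97.6 in S, and was lower in L under all 5 scalings. All 3 probesets had every L value below every S value. Mdh2, mitochondrial malate dehydrogenase, was lower in L on both probesets of its .S copy, at -1.20 and -0.93 (adjusted p = 0.00037 and 0.00185), of which the smaller difference turned to 0.04 at the 75th percentile, while mdh2.L differed by -0.26 (adjusted p = 0.255) and was called higher, at 0.72, at the 75th percentile. Of the subunits of isocitrate dehydrogenase, idh3g.S had 38.6, 39.5 and 40.2 in L, 75.1, 102.4 and 69.1 in R and 77.0, 62.2 and 74.1 in S. Its difference of -0.84 (adjusted p = 0.00417) turned to 0.13 at the 75th percentile, and idh3a.S and idh3b.S, at -0.34 and -0.20, were not called.

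Protein import had calls in each direction, in the outer and in the inner membrane machinery. Timm10, a small chaperone that guides hydrophobic proteins across the space between the membranes, had 10.4, 10.4 and 5.57 for its .L copy in L, 0.936, 0.697 and 1.13 in R and 1.12, 0.921 and 0.782 in S. Its cornea means were under the 5th percentile limit, so that the difference of 3.18 (adjusted p = 1.67e-05) has no exact size. The .S copy had 3.64, 4.58 and 5.65 in L, 2.93, 1.32 and 1.58 in R and 2.06, 1.38 and 1.43 in S, again with all lens values above the others, and differed from S by 1.51 ± 0.32 (adjusted p = 0.00305). Timm13.L, which pairs with another small chaperone of that space, was higher in L by 1.06 ± 0.24 (adjusted p = 0.00461), with means of 5.09 in L and 2.42 in S. The .S copy of timm13 had 52.2, 60.2 and 56.3 in L and 76.3, 69.3 and 75.4 in S. Its L values all lay below its S values, and it was not called on the deposited values. Timm23.L, a core protein of the inner membrane translocase for proteins with a presequence, had 6.84, 4.97 and 3.99 in L, 16.6, 16.2 and 13.1 in R and 23.0, 17.4 and 18.4 in S. It was lower in each lens pool, at -1.92 ± 0.23 (adjusted p = 9.04e-05). Tomm20, a receptor on the outer membrane for that presequence, had 15.5, 14.2 and 11.6 in L, 53.9, 68.9 and 49.1 in R and 62.1, 64.8 and 50.1 in S. Its difference was -2.10 ± 0.20 (adjusted p = 2.07e-05), with overlapping R and S values, whereas tomm22.L, the central receptor, was higher in L by 0.99 (adjusted p = 0.00207), with an S mean under the 5th percentile limit and no call on the hybridisation controls.

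The mitochondrial ribosome had members that were called in each direction under all 5 scalings. In the small subunit, mrps24.S had 13.8, 20.2 and 24.4 in L, 74.5, 75.7 and 104.3 in R and 94.4, 67.1 and 77.7 in S, and mrps9.L had 11.4, 12.5 and 14.9 in L, 51.9, 53.4 and 48.0 in R and 59.3, 48.3 and 47.5 in S. Both were lower in every lens pool, by 4.16-fold and 3.99-fold against S (adjusted p = 0.000111 and 1.04e-05 from limma), and their R and S values overlapped. Mrps25.S had 4.01, 4.93 and 6.71 in L, 1.08, 1.93 and 1.58 in R and 2.04, 1.34 and 1.10 in S, and was higher in L by 1.82 ± 0.31 (adjusted p = 0.000861). In the large subunit the 3 such calls, mrpl12.L, mrpl41.S and 1 of 3 probesets of mrpl11.S, were all higher in L, by 1.30, 1.29 and 1.21 against S. The other probesets of mrpl11.S were not called, nor was mrpl41.L, with means of 4.84 in L and 6.64 in S. The 4 ribosomal probesets that were higher had means of 3.36 to 5.74 in L and 1.36 to 2.35 in S, in the low part of the intensity range.

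Xenopus laevis is an allotetraploid whose gene copies on the long and short chromosome sets carry the letters .L and .S, and copies of some genes read differently. Both copies were on the array for 22 of the genes. The copies agreed for 13 of them in L minus S, where no call on either copy also counted as agreement. Neither copy was called for atp5f1c, atp5po, ndufa4, timm8b and tomm40. For the other 9, 1 copy was called and another was not, and 0 of these member genes had copies called in opposite directions on the deposited values. At the 75th percentile and after quantile normalisation, however, sqor.L was called higher in L than in S and sqor.S lower. Opposite calls under the other scalings were not counted over all of these genes. Timm13.L, for example, was called higher under all 5 scalings, while the differences of timm13.S reached from -0.76 to 0.59 over them. Sqor had the largest spread, 4.55 on the log2 scale: sqor.S differed by -4.23, of no exact size because its L mean was under the limit, while sqor.L had 7.98, 7.74 and 8.25 in L, 4.13, 10.4 and 4.62 in R and 8.73, 3.46 and 8.69 in S, and differed by 0.32 (adjusted p = 0.547). Cox4i2.L had 2.05, 3.25 and 1.20 in L, 4.38, 9.26 and 1.70 in R and 2.02, 2.35 and 2.05 in S, low in all groups and overlapping, and its L minus S difference was -0.09 (adjusted p = 0.897). Cox7c.L, a small subunit of complex IV, was lower in L, at -1.46 (adjusted p = 0.00246) and cox7c.S differed by 0.20 (adjusted p = 0.404). Cox7c.S stayed without a call in 17 of 21 alternatives. Differences between copies were not tested, and probesets of different copies may bind their targets unequally.

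**Figure D4:**
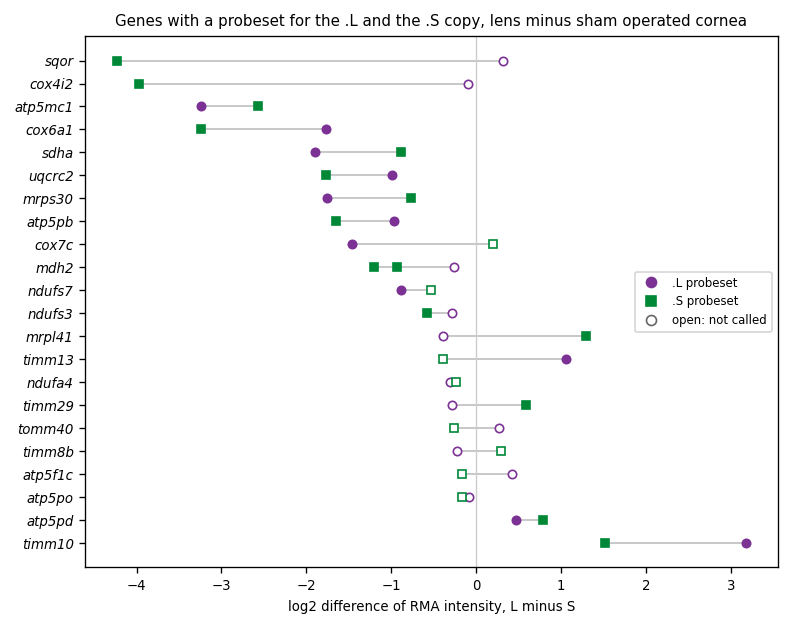
Log2 difference of RMA intensity between lens (L) and sham operated cornea (S) for the 22 genes with probesets of both copies, with circles for .L, squares for .S and open symbols for those not called. The lines joining the copies are longest for sqor, at 4.55, and cox4i2. On the deposited values, which are shown, 0 genes have filled symbols on both sides of 0.

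Lens was also set against the CLT cornea in the same fit. In L 27 of the 142 were higher than in R and 49 lower, beside 18.6% and 30.2% of all probesets, and under all 5 scalings 12 were higher and 10 lower (8.45% and 7.04%, beside 10.4% and 14.2%). The split again turned with the scaling, to 76 higher and 11 lower at the 75th percentile (57.2% and 14.7% of all probesets) and 12 and 58 on the hybridisation controls (10.4% and 36.7% of all). Values of L and R did not overlap in 34 higher and 58 lower members, and in 23.2% and 32.4% of all probesets. Since L minus S and L minus R share the lens arrays, their values are given side by side: cox4i2.S differed by -3.98 from S and -3.83 from R, atp5mc1.L by -3.25 and -3.10, atp5if1.L by 1.34 and 1.24, and timm10.L by 3.18 and 3.22. Ndufb8.L was higher in L than in R by 1.60 under all 5 scalings (adjusted p = 0.00074), and mrpl23.S, mrps15.L and timm50.L were as well, by 1.68, 1.09 and 1.24.

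The corneas of both operations were then compared. Both were healing, but only in R had the inner cornea been ruptured and the lens removed. A deeper wound, loss of the lens and CLT therefore cannot be told apart in R minus S. In R, 0 of the 142 probesets were higher than in S and 1 was lower, beside 0.485% and 0.640% of all probesets, with 19 at an unadjusted p under 0.05 (14.5% of all probesets). The call was sqor.S, which encodes the mitochondrial sulfide quinone oxidoreductase that oxidises hydrogen sulfide and hands the electrons to ubiquinone. It had 3.44, 3.72 and 2.83 in R and 19.7, 21.5 and 17.6 in S, so that every CLT pool was far below every sham pool and the spread within a group was small. The fall was 5.91-fold, at -2.56 ± 0.19 (adjusted p = 0.000414), and it was called under all 5 scalings and without each array in turn. In L the values were 0.874, 1.26 and 1.02, with a mean under the limit, and the L minus R difference was -1.67 (adjusted p = 8.38e-05), which again has no exact size. The other copy, sqor.L, differed between R and S by -0.13 (adjusted p = 0.919).

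The next smallest p belonged to cox6a1.S, whose R and S values are given above, with an R minus S difference of -0.93 ± 0.19 (adjusted p = 0.0645), past the threshold under 5 of the alternatives. Ndufa3.L, an accessory subunit of complex I, had 4.45, 3.26 and 4.32 in R and 15.1, 7.86 and 8.83 in S, with no overlap, and differed by -1.36 ± 0.32 (adjusted p = 0.094). Mrps30.S had 2.44, 2.02 and 2.78 in R and 4.75, 3.59 and 3.58 in S (adjusted p = 0.14), and ndufc2.S had 91.0, 118.3 and 73.7 in R and 165.8, 143.4 and 161.0 in S (adjusted p = 0.154). In both the R values lay under all S values. Among positive differences, timm10b.S had 7.68, 7.73 and 8.33 in R and 3.54, 7.23 and 3.96 in S (adjusted p = 0.214), and sdhb.S, the iron sulfur subunit of complex II, had 84.7, 82.0 and 138.2 in R and 78.2, 56.6 and 62.5 in S (adjusted p = 0.274). With S3 left out, timm10b.S was called higher in R (adjusted p = 0.0357).

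Across the class, small negative differences were the more common. The R minus S difference was below 0 for 98 of the 142 probesets (69.0%, beside 42.5% of all probesets) with a median of -0.15, where all probesets had a median of 0.06, and the median of the members stayed below 0 under each of the other 4 scalings. All R values lay below all S values in 29 probesets (20.4%, beside 9.82% of all), and above them in 4 (2.82%, beside 12.3%). Of complex IV 13 of 14 probesets were below 0 and of the ATP synthase 15 of 18, whereas of the large ribosomal subunit 12 of 25 were. Single arrays moved with this shift. S1 was the highest of the S arrays in 103 of the 142 probesets (72.5%, beside 36.5% of all), and its red blood cell sum was also the highest of the 9 arrays. R3 was the lowest of the R arrays in 64 probesets (45.1%, beside 32.9% of all). The part of these arrays and of the red blood cells in the shift was not tested. Without S1, 87 were below 0 (61.3%, beside 43.9%), the median was -0.07, 32 had all R values below S (22.5%, beside 13.0%) and 15 above (10.6%, beside 17.5%). Without R3, 92 were below 0 (64.8%, beside 45.9%) with a median of -0.10. Without R2, with the highest photoreceptor and the lowest lens marker sum of the R arrays, 99 were below 0 (69.7%, beside 43.4%) with a median of -0.16. Without S4 102 were (71.8%, beside 44.2%), with a median of -0.17. Without R1 98 were (69.0%, beside 42.1%), and without S3 102 (71.8%, beside 40.9%).

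**Figure D5:**
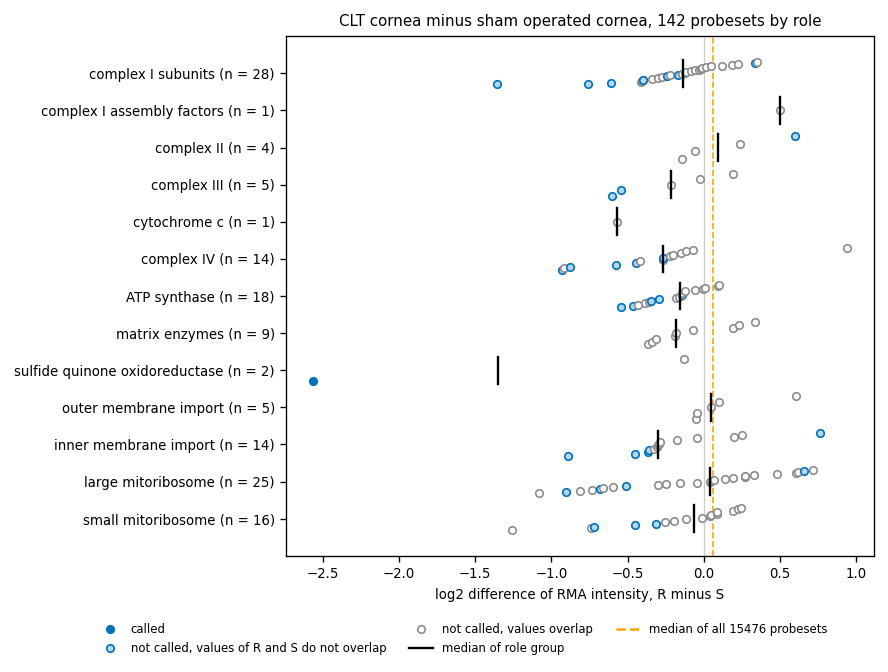
Log2 difference of RMA intensity between CLT cornea (R) and sham operated cornea (S) for each of the 142 probesets, by role, with a filled point for the single call, light points where the R and S values do not overlap and open points elsewhere. The call is sqor.S at -2.56, and the medians (black bars) of complex IV and inner membrane import lie at -0.27 and -0.30, left of the median of all probesets at 0.06.

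Other mitochondrial genes were taken from lists by pathway. Of 27 probesets of the citric acid cycle and pyruvate dehydrogenase, 18 were lower in L than in S and 3 higher, 5 and 3 of them under all 5 scalings. Their median was -0.88, where all probesets had 0.02. Of all probesets 30.6% were lower and 22.9% higher, 15% and 11.7% under all 5 scalings. Among those with a mean of 4 or more, 51.6% were lower and 18.1% higher. These shares are the background for each list below, and the lists were not matched for level. The lowest p values were those of pdk4.L and pdk4.S, copies of a kinase that shuts pyruvate dehydrogenase, at -4.54 and -3.44 (adjusted p = 3.75e-07 and 7.99e-07 from limma), and a higher level in L was found for sucla2.S, a subunit of succinyl-CoA synthetase, by 1.85. Of 21 probesets of carriers and porins 11 were lower and 2 higher, 6 and 2 of them under all 5 scalings, with a median of -0.73. Among them mcu.L, the pore of the mitochondrial calcium uniporter, had 2.37, 3.47 and 2.60 in L, 61.6, 64.8 and 77.7 in R and 81.6, 66.6 and 74.3 in S, a difference of -4.73 from S (adjusted p = 1.11e-07), ucp2.L, an uncoupling protein, differed by -3.55, and slc25a11.L, the oxoglutarate carrier, by 2.41. Of 19 probesets for assembly of the respiratory chain 4 were higher and 2 lower, among them uqcc2.L, a complex III assembly factor, at 2.38, lrpprc.L, which stabilises mitochondrial mRNA, at 1.75, and cox17.S, a copper chaperone of complex IV, at -1.47. Its other copy, cox17.L, was called in the opposite direction, at 0.70 (adjusted p = 0.0355 from limma), with 63.9, 58.3 and 41.9 in L and 41.3, 25.6 and 34.2 in S, though not under all 5 scalings.

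In the lists for regulators of biogenesis 3 of 19 probesets were higher and 7 lower, for mitochondrial DNA maintenance and transcription 1 and 1 of 8, for translation factors 1 and 1 of 6, and for chaperones and proteases 9 and 8 of 37. Tfe3.S, a transcription factor of lysosome and mitochondrial genes, was lower in L, at -1.94. No probeset was found for proteins encoded by mitochondrial DNA. Dynamics and mitophagy had 8 higher and 8 lower of 22. Bnip3l.L is a mitophagy receptor that in the mouse is needed for removal of mitochondria from lens fibre cells. One of its 3 probesets had 40.6, 25.6 and 28.4 in L, 14.7, 16.0 and 13.4 in R and 5.10, 6.66 and 5.24 in S, with R between L and S and no overlap. It differed by 2.46 between L and S (adjusted p = 1.09e-05) and by 1.38 between R and S (adjusted p = 0.0183). The R minus S difference was not called without S1 or without S4 (adjusted p = 0.0822 and 0.105). Its call was kept in 17 of 21 alternatives, with adjusted p up to 0.255 from limma. For its other probesets the L minus S differences were 2.24 and 1.27 (adjusted p = 6.27e-05 and 0.0821 from limma), of which the smaller was not called. Their R minus S differences were -0.35 and 0.12, neither called. Park7.L, a protein with a role in the oxidative stress response of mitochondria, was higher in L than in S by 1.74.

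Of the 159 probesets of these lists 1 was higher in R than in S (0.629%, beside 0.485% of all probesets) and 3 were lower (1.89%, beside 0.640%), and they are named here because of their values. Besides bnip3l.L, slc25a1.L, the citrate carrier, had 3.75, 5.49 and 4.92 in R and 15.4, 14.5 and 14.4 in S, a difference of -1.66 with no overlap (adjusted p = 0.00892, and 0.0514 without S4). The call of slc25a1.L was kept in 18 of 21 alternatives, with adjusted p up to 0.0924 from limma. Pdha1.S, a subunit of pyruvate dehydrogenase, had 20.9, 26.9 and 21.3 in R and 45.3, 43.0 and 39.4 in S, a difference of -0.89 (adjusted p = 0.0384) whose call was lost in 8 of the 9 fits that left out 1 array. Gabpb1-a, a subunit of a factor that drives nuclear genes for respiration, was lower in R, at -1.52 on 1 of its 3 probesets (adjusted p = 0.0217), a call lost without S1 or S3 (adjusted p = 0.0773 and 0.0527) and on the hybridisation controls, and kept in 15 of 21 alternatives with adjusted p up to 0.146.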

How the data were processed

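Per the labels and the methods, RNA of each pool (50 ng) was amplified with the NuGEN Ovation system and read on the Xenopus laevis GeneChip version 1. The authors computed RMA values in GenePattern, and the deposited values are linear RMA intensities, 1 per probeset and array. RMA subtracts background with a model and compresses low values, so small intensities have no exact fold. Of 15611 probesets, 135 controls were left out. Log2 intensities with no offset were fitted in 1 model of 3 groups with limma 3.58.1 in R 4.3.3, with two-sided tests. P-values were adjusted by Benjamini-Hochberg across the 15476 others, and those under 0.05 were called. They measure the spread between pools, with each array taken as its own pool, and precision is limited by having 3 arrays in a group. Whether S4, which resembled an average of S1 and S3, is an independent pool was not tested. Over all probesets the median SD of log2 values within a group was 0.181 in S, 0.258 in L and 0.289 in R.

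Gene symbols came from the platform annotation, in which 195 probesets had several symbols and 5985 none; 141 of the 142 members had a gene ID found in RefSeq. Members, lists and named genes were chosen with earlier results of these data known. Genes to name were all calls between R and S, in each role group up to 3 calls in each direction with the smallest p for L minus S, the 2 with the smallest p for R minus S and the one nearest 0 for L minus S, the 8 largest differences in each direction, all probesets of sqor, cs, cycs, mdh2, idh3 and of tissue isoforms, and up to 2 calls in each direction from each pathway list. The text gives part of these in full. Cox7c, timm50.L, mrpl41.L, cox17.L, slc25a1.L and pdha1.S fall outside that rule and were chosen after their values were seen, as were the R minus S values of bnip3l.L and gabpb1-a. The mean L minus S difference of the 18 hybridisation controls was 0.37 on the log2 scale, and that scaling was added after the data were seen. The controls did not share 1 shift: the 10 BioB and BioC probesets differed by 0.37 to 0.91 and the 8 BioD and Cre probesets by -0.06 to 0.23. For L minus S 8 members were higher on this scaling and 8 under all 5, so the stable higher calls rest on it. The fit was tested on simulated data for L minus S over 15476 probesets, and called 35 of 100 changes of 2-fold and 76 of 100 of 4-fold. Only these probesets were changed in the simulation, whereas 22.9% of all probesets were called higher and 30.6% lower in the real comparison. The adjustment for multiple tests was therefore stricter in the simulation, and its rates do not apply to the real L minus S calls. No sequence is shown.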

Additional observations from a re-analysis of the deposited data

How the results depend on the processing

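The scaling of the arrays decided the balance of the lens comparisons. For L minus S the members called higher were 75, 48, 52 and 8, and those lower 17, 28 and 26 under the first 3, after 75th percentile, quantile, cyclic loess and hybridisation control scaling, with medians of 0.68, 0.27, 0.33 and -0.67. For L minus R the higher calls were 76, 57, 58 and 12, the lower calls under the first 3 were 11, 23 and 18, and the medians were 0.77, 0.30, 0.42 and -0.53. The medians of all probesets for L minus R were 0.90, 0.11, -0.03 and -0.40 under these scalings. Shares of all probesets called are not given for L minus R after quantile and cyclic loess scaling. They are also not given for the fits described below. These member counts therefore cannot be set against the array as a whole. With only probesets of mean 4 or more, 12 were higher and 53 lower in L than in S, and 14 and 47 in L than in R, with a median of -0.47 for L minus R; fewer members were tested. The main fit did not pair the arrays by replicate number. Correlations of deviations between L and R arrays of the same number were 0.0224, 0.132 and 0.0914. Between L and R arrays of different numbers they were -0.1255 to 0.018. Pairs of the same number with S, which came from other animals, had -0.0991 to 0.0568. Whether the numbers mark the same animals was not tested. With the replicate number as a block, 12 were higher and 46 lower in L than in S, 23 and 46 in L than in R, and 0 and 1 in R than in S. S4 is the only array with the number 4, so in this fit it adds nothing to the S estimate. The fit also blocks S1 and S3 with pools of other animals, and it was kept among the alternatives. Between R and S the lower calls were 2 with an offset of 1 or 8, with the mean filter and with trended and robust eBayes, 4 with array weights, and 0 with 1 probeset per gene, which replaced sqor.S by sqor.L. Leaving out 1 array gave 19 to 28 higher and 48 to 60 lower in L than in S (median -0.35 to -0.23), 24 to 29 and 43 to 53 in L than in R (-0.25 to -0.17), and 0 to 1 and 1 to 2 in R than in S (-0.19 to -0.07). Without R2, mrpl15.L was also lower in R than in S. Over all 142 members, the sign turned under some scaling in 74 for L minus S (21 of the 80 called), in 67 for L minus R (20 of the 76 called) and in 8 for R minus S. In addition, 106 differences of single probesets, not all of them given in the text, were followed under the alternatives. Of these, 10 changed sign under some alternative. The called ones among them were 2, idh3g.S (0.13) and 1 probeset of mdh2.S (0.0438), both at the 75th percentile. Of those not called, mdh2.L was called higher at the 75th percentile (0.72) and after cyclic loess (0.59), as was idh3b.S (0.77 and 0.76). For L minus S, sqor.L and cox7c.S also changed sign under some alternative and were called under others. They stayed without a call in 16 and 17 of 21 alternatives. Causes were not tested.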
